A study of Mus musculus with 8 samples.

Results

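The genes described here are the 5 chains of ventricular sarcomeric myosin: the heavy chain genes Myh6, Myh7 and Myh7b and the light chain genes Myl2 and Myl3. They were chosen by gene symbol, with their values on these same arrays already in view, including the change in Myh7 relative to Myh6 late in pregnancy. Their levels are therefore given as a description, and the counts of calls among them are printed without being read as a test. They are 5 of the 22180 genes that could be named on the array, and each is read by 1 probe set, a group of probes summarised to 1 value. The probe sets are 17306532 for Myh6 (Entrez gene 17888), 17306577 for Myh7 (140781), 17378395 for Myh7b (668940), 17442010 for Myl2 (17906) and 17522439 for Myl3 (17897), and all 5 passed the filter on low values.

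RNA from the left ventricle of female C57BL/6 mice was hybridised to Affymetrix whole-transcript arrays, 1 array per sample and 2 arrays in each of 4 reproductive states. The states were diestrus (not pregnant), days 12 and 19 of pregnancy, and 1.5 days after birth, called post-partum here. All mice were 3 to 4 months old and age-matched, the labels name no genetic change or drug, and all were killed by cervical dislocation under isoflurane. The protocol gives the late group as 18 or 19 days pregnant, and its RNA, like that of the others, came from 1 piece of each dissected ventricle. The arrays are labelled as replicates 2 and 3 for diestrus and for day 12, replicates 1 and 2 for day 19, and replicates 2 and 4 for post-partum. The labels call them separate samples but do not say which animals they came from, so every p-value below measures only the spread between these samples, which may be partly technical.

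Cardiac myosin is the motor of the thick filament and is built from a pair of heavy chains, each carrying an essential and a regulatory light chain. The fast alpha heavy chain (Myh6) predominates in the adult mouse ventricle, while the slow beta heavy chain (Myh7) predominates before birth and is known to return in the adult heart under pressure load or low thyroid hormone. Myl2 is the regulatory and Myl3 the essential light chain of the ventricle, and Myh7b is an older slow-type heavy chain gene that contains the gene of a microRNA.

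All values are log2 levels, so a difference of 1 unit is a doubling, and each difference is given with the standard error (SE) of limma's linear model over all 13872 genes tested, except for the ratio of Myh7 to Myh6, whose SE comes from the SD pooled over the 4 groups. The level of a probe set depends on its own probes, so levels are compared between arrays and not between genes. Array medians lay between 5.14 and 5.28, and any pair of arrays correlated at 0.969 to 0.992. Across the whole table, limma with Benjamini-Hochberg adjustment called 0 genes in each of the 6 comparisons between states, although 1011 genes had an unadjusted p under 0.05 for day 19 against diestrus and 321 to 1145 in the other 5 comparisons. Without day 19 replicate 1, whose removal leaves 1 array assumed to vary like the other groups, 1311 genes were called for day 19 against diestrus, 1374 against day 12 and 929 for post-partum against day 19.

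The tissue label was checked against markers of the cell types a ventricle sample can hold. All 16 cardiomyocyte markers were measured, and their mean level was 11.76 to 12.02 on the 8 arrays. The mean of 6 markers of ventricular muscle was 8.39 to 8.84, and that of 15 skeletal muscle markers, which include slow fibre troponins, was 5.21 to 5.42. Of these 15, 10 passed the filter on low values. At day 19, 8 of the 10 were higher than in diestrus, against 44.5% of all genes. Of the 10, 3 were higher with an unadjusted limma p under 0.05, and 0 passed the adjusted threshold. At day 12, 8 of the 10 were higher than in diestrus, and post-partum 7 were. Atrial muscle markers differed within groups. Myl7, the atrial regulatory light chain, stood at 8.24 on diestrus replicate 3, 10.04 on day 12 replicate 3 and 11.76 on day 19 replicate 1, against 4.56 to 5.12 on the other 5 arrays. Sln, the atrial sarcolipin gene, split the same way, at 6.21 to 10.62 against 3.75 to 4.52. The mean of the 19 measured of 20 atrial markers was 8.34 on day 19 replicate 1 and 6.83 to 7.51 on the other 7. The mean of 12 measured leukocyte markers was 8.73 on day 19 replicate 2 and 7.17 to 7.44 on the other 7. The part of atrial tissue or leukocytes in the results below was not tested. Some values are also given without those arrays. At day 19 this leaves 1 array, which holds marker differences of its own, so such values do not separate the markers from the state.

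Myh7 stood apart at day 19. Its level was 6.98 and 6.41 on the diestrus arrays, 6.32 and 6.97 on the day 12 arrays, 8.99 and 9.69 on the day 19 arrays, and 7.56 and 6.88 on the post-partum arrays. Both day 19 arrays lay above the other 6, and the smallest distance between them and any other array was 1.43. The day 12 and diestrus values covered the same range, and the post-partum values overlapped both.

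Group means of Myh7 were 6.69 ± 0.40 for diestrus, 6.64 ± 0.45 for day 12, 9.34 ± 0.50 for day 19 and 7.22 ± 0.48 after birth (SD, n = 2 in each). The day 19 mean exceeded the diestrus mean by 2.65 ± 0.35 (SE), a 6.28-fold difference, and the day 12 mean by 2.70 ± 0.35, a 6.49-fold difference. Both differences were over 5 times the SD of any group. At 1.5 days after birth the level was 2.12 ± 0.35 lower than at day 19, which is 0.229 of the day 19 level. The post-partum mean was 0.53 above diestrus, but this excess was 0.19 without post-partum replicate 2 and 0.87 without replicate 4. The day 12 difference from diestrus was -0.05 ± 0.35, and it was positive or negative according to which array was left out.

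The day 19 difference in Myh7 was 3.00 without day 19 replicate 1, the array with the highest atrial markers, and 2.30 without replicate 2, the array with the highest leukocyte markers. Without all 3 arrays with high Myl7, which leaves day 19 replicate 2 against diestrus replicate 2, it was 2.72, and after each array was centred on its cardiomyocyte markers it was 2.74. Myh7 itself had no common direction on the 3 arrays with high Myl7, at 6.41, 6.97 and 8.99 against 6.98, 6.32 and 9.69 on the other array of the same group. With Myh7 itself included, 9 of the 13872 genes tested had a difference between day 19 and diestrus at least as large as that of Myh7. Because Myh7 was chosen with this difference in view, its place is only a description.

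**Figure D1:**
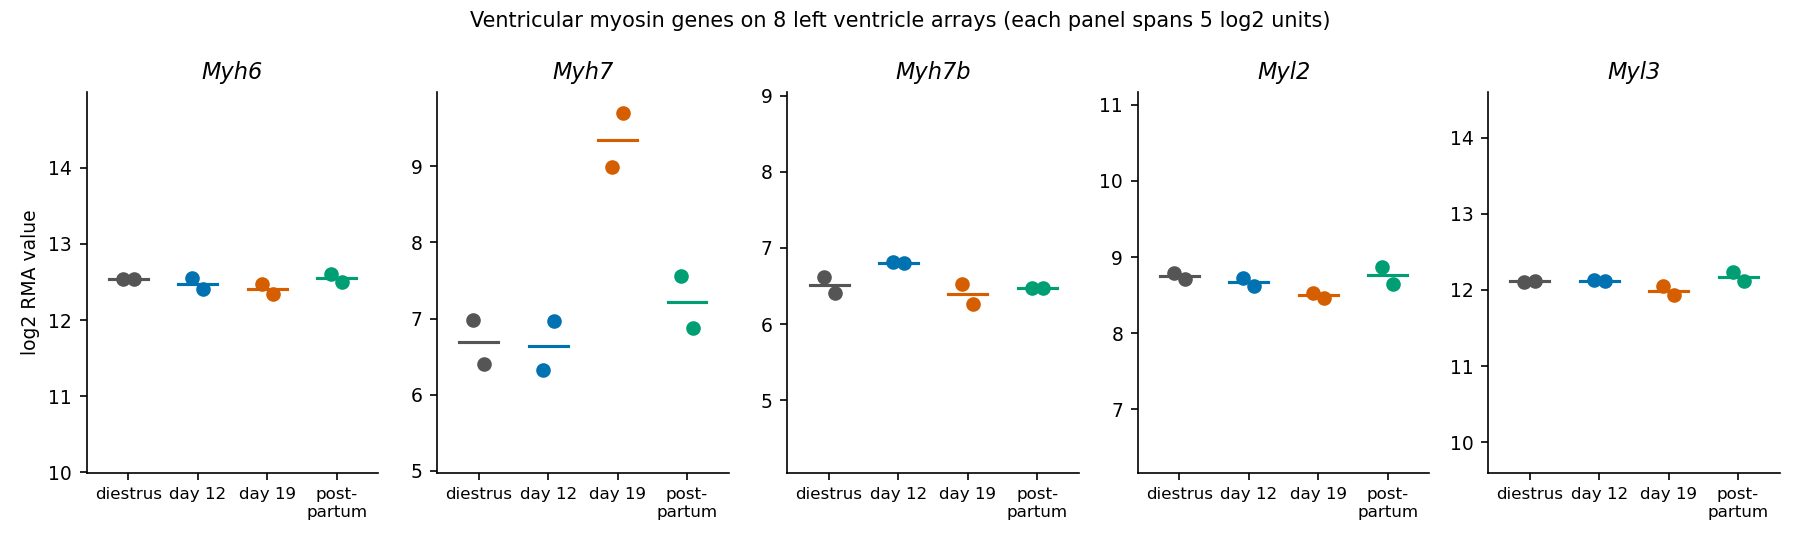
Log2 level (vertical axes) of Myh6, Myh7, Myh7b, Myl2 and Myl3 by reproductive state, with 1 point per array and 1 bar at each group mean of 2 arrays. Myh7 reaches 8.99 and 9.69 at day 19 and stays between 6.32 and 7.56 on the other 6 arrays, while the other 4 genes move within much narrower ranges.

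Myh6 and Myh7 lie side by side on chromosome 14, on the minus strand and 2666 bases apart. The sequences just before their starts are shown because these neighbouring genes had unlike values at day 19. Each run below is the 250 bases before the start in RefSeq's GRCm38.p6 annotation, read 5′ to 3′ on the minus strand, for Myh6 at chr14:54966608-54966857 and for Myh7 at chr14:54994627-54994876. Capitals mark the MCAT motif, CATTCC, here on the opposite strand as GGAATG.
Myh6: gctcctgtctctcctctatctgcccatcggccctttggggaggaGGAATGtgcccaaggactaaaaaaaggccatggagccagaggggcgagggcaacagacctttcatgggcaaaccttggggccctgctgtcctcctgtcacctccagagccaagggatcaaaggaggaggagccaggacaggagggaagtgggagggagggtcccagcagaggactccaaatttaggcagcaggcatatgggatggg
Myh7: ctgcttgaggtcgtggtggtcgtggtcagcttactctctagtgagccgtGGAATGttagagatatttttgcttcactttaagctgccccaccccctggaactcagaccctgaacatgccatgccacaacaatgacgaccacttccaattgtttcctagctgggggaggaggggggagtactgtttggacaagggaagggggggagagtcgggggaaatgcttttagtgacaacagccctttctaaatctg

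The MCAT motif, the sequence that TEAD factors are known to bind in muscle genes, begins 206 bases before the Myh6 start and 201 bases before the Myh7 start. It was searched on both strands and is present in 12.6% of 32851 promoter windows of the same length. A second listed Myh7 start has no match in its window, at chr14:54994550-54994799. That window overlaps the printed one but ends short of the stretch that holds the motif, so the second start is not shown to lack it. Myl3 has 2 matches at 177 and 149 bases, and Myh7b and both Myl2 windows have none. The exact string AGGTCA, a half-site for nuclear receptors such as those of thyroid hormone, was not found in either printed window. It is present in 14% of all windows. Other spellings of the half-site were not searched, so nothing is said of whether these windows hold a thyroid hormone element. A match of this kind, or its lack, describes the letters in these windows and says nothing of binding.

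Myh6, the fast heavy chain, moved little between the 4 states. Its level was 12.53 and 12.54 on the diestrus arrays, 12.56 and 12.40 at day 12, 12.48 and 12.34 at day 19, and 12.60 and 12.50 post-partum. Both day 19 arrays were below both diestrus arrays, but they overlapped those of day 12. The day 19 mean was 0.13 ± 0.13 (SE) below diestrus, or 0.916 of the diestrus level, and 0.06 below without day 19 replicate 2. After centring on the cardiomyocyte markers the difference was -0.04. The day 12 and post-partum means were within 0.06 of diestrus.

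The ratio of Myh7 to Myh6 followed Myh7. Relative to the diestrus mean, it was 1.22-fold and 0.818-fold on the diestrus arrays and 0.766-fold and 1.33-fold on the day 12 arrays. At day 19 it was 5.14-fold and 9.18-fold, and post-partum it was 1.75-fold and 1.17-fold. Both day 19 arrays stood above the other 6, and the post-partum arrays overlapped diestrus. The mean at day 19 was 6.86-fold that of diestrus (2.78 ± 0.50 log2 units, SE from the pooled SD) and the post-partum mean was 0.208 of the day 19 mean. The day 19 difference was 2.36 to 3.20 log2 units when any array of the pair of groups was left out, and 2.91 without the 3 arrays with high Myl7, when each state holds 1 array. Because each heavy chain is read by other probes, the ratio is given only as a change from diestrus, and the share of each protein in the myosin pool was not measured.

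**Figure D2:**
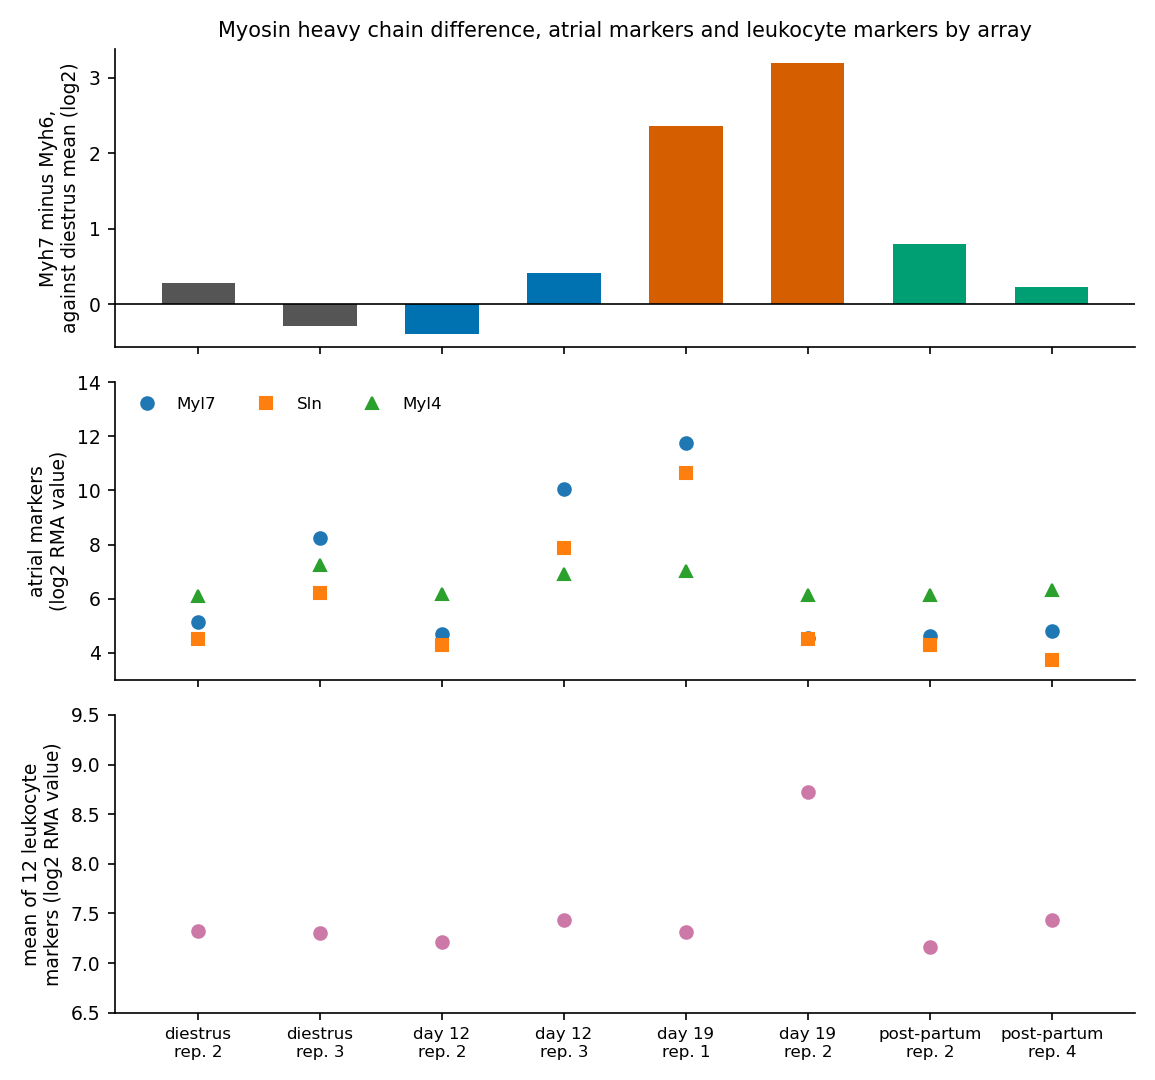
Log2 Myh7 minus log2 Myh6 relative to the diestrus mean (bars, top) on each of the 8 arrays, with the log2 levels of the atrial markers Myl7, Sln and Myl4 (middle) and the mean of 12 leukocyte markers (bottom), 1 point per array. The bars reach 2.36 and 3.20 on the day 19 arrays and lie between -0.39 and 0.80 on the other 6, whereas Myl7 and Sln are high on 1 array of each of 3 states and the leukocyte mean is high on day 19 replicate 2.

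Myh7b had a pattern unlike that of Myh7. Its level was 6.62 and 6.41 on the diestrus pair of arrays, 6.81 and 6.80 on the day 12 pair, 6.53 and 6.26 on the day 19 pair and 6.48 and 6.47 on the post-partum pair. The day 12 arrays were above all other arrays. The shares of all genes with this pattern, or with no overlap between day 12 and day 19, were not counted. Against diestrus alone, 21.7% of all genes were higher at day 12 without overlap. The day 12 mean was 0.29 ± 0.15 (SE) above diestrus, a 1.22-fold difference, and this was 0.40 without diestrus replicate 2 and 0.18 without diestrus replicate 3. From day 12 to day 19 the mean was 0.41 ± 0.15 lower, with no overlap, and 0.54 or 0.28 lower when day 19 replicate 1 or 2 was left out. Day 19 and post-partum values overlapped diestrus, so at day 19, when the Myh7 level was highest, Myh7b was not separated from diestrus.

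The light chains had their lowest values at day 19. Myl2, the regulatory light chain, had levels of 8.78 and 8.72 on the diestrus pair of arrays, 8.72 and 8.61 on the day 12 pair, 8.53 and 8.46 on the day 19 pair and 8.87 and 8.65 on the post-partum pair. Both day 19 arrays were below the other 6. The day 19 mean was 0.25 ± 0.14 (SE) below diestrus, or 0.838 of the diestrus level, and the post-partum mean was 1.2-fold the day 19 mean. The difference from diestrus was -0.17 after centring on the cardiomyocyte markers, and 0 of those 16 markers were as far below diestrus as Myl2.

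Myl3, the essential light chain, was 12.10 and 12.12 on the diestrus pair of arrays, 12.13 and 12.12 on the day 12 pair, 12.05 and 11.93 on the day 19 pair and 12.24 and 12.11 on the post-partum pair. Again both day 19 arrays were below the other 6, although the distance was small. The day 19 mean was 0.12 ± 0.13 (SE) below diestrus, or 0.919 of its level, and 0.06 below without day 19 replicate 2. Among the cardiomyocyte markers 5 of 16 were at least as far below diestrus, and centring on them left a difference of -0.04. The post-partum mean was 0.19 above day 19, a 1.14-fold difference.

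The mean of the 16 cardiomyocyte markers was 0.08 below diestrus at day 19 and 0.06 above it post-partum. The day 19 difference came from replicate 2, at 11.76, while replicate 1, at 11.93, equalled the diestrus mean. Of the 16 markers 15 had a lower day 19 mean, with differences from -0.15 to 0.08, and 0 of 16 passed limma's adjusted threshold or had an unadjusted p under 0.05. In bulk tissue, fewer cells of a type and less RNA per cell cannot be told apart. Of the 6 ventricular muscle markers, 5 were lower and 1 higher at day 19 than in diestrus (median -0.18). Of these, 0 had an unadjusted limma p under 0.05. Irx4, a transcription factor of ventricular muscle, was the 1 of 6 with both day 19 arrays below all other arrays. This pattern was found in 4.95% of all genes. Irx4 was 0.35 below the diestrus mean and was named after its values were seen.

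**Figure D3:**
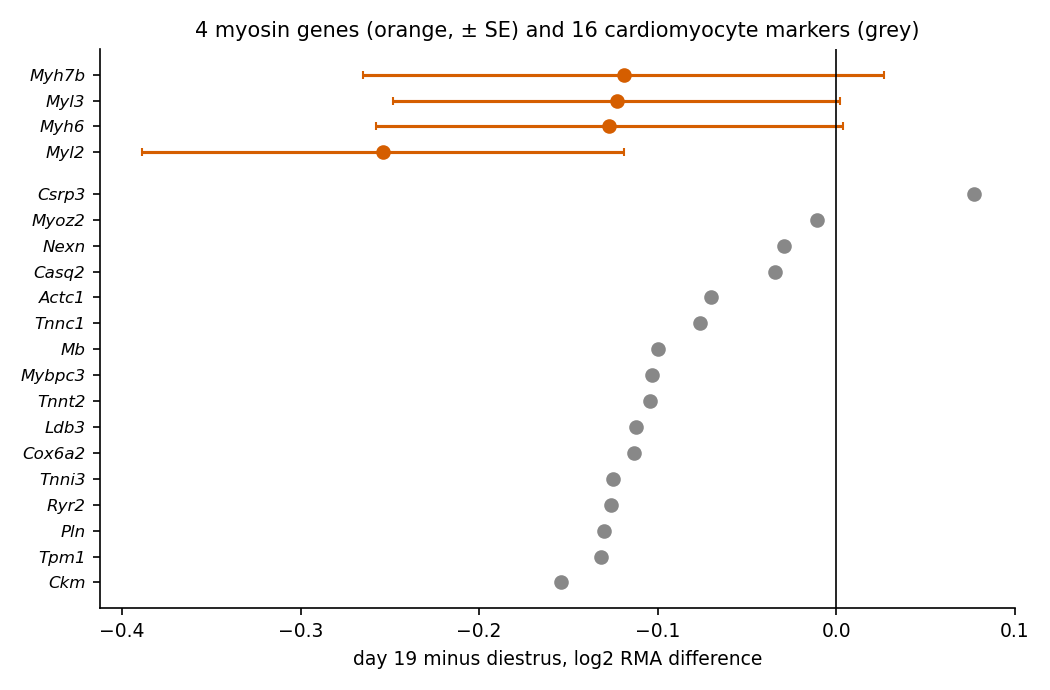
Day 19 minus diestrus (log2, horizontal axis) for 4 of the myosin genes (orange points with the SE of the model as bars) and the 16 cardiomyocyte markers (grey points). Myl2 at -0.25 lies below every marker, while Myh6, Myl3 and Myh7b at -0.13, -0.12 and -0.12 lie inside the marker range of -0.15 to 0.08; Myh7, at 2.65, is off this scale and left out.

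Counted as a group, 0 of the 5 genes passed limma's adjusted threshold in any of the 6 comparisons, where the share of all genes called was 0%. It was also 0 of 5 without the filter, with a stricter filter, with array weights, with trended and robust variance and with arrays centred on their medians. The day 19 difference of Myh7 from diestrus was 3.00 without day 19 replicate 1 and 2.30 without replicate 2. Each of these rests on 1 day 19 array, so calls from such fits are not counted for the 5 genes. At day 19 against diestrus, 1 of 5 had both arrays above both diestrus arrays, a pattern found in 16.4% of all genes tested, and 3 of 5 (Myh6, Myl2 and Myl3) had both below, found in 20.4%. At day 12, 2 of 5 (Myh7b and Myl3) were above diestrus without overlap and 0 were below, against 21.7% and 15.6% of all genes. Post-partum, 0 of 5 were above and 0 below diestrus, against 21.1% and 21.7%. Myh7 was the 1 gene of 5 with both day 19 arrays above the other 6 (3.61% of all genes), and Myl2 and Myl3 were the 2 with both below (4.95%). The genes were chosen with these values known, so nothing is read from these counts.

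The 3 heavy chain genes each contain a microRNA gene: Mir208a lies in Myh6, Mir208b in Myh7 and Mir499 in Myh7b. The mature microRNAs are known as regulators of heavy chain expression in muscle. Their mature sequences from RefSeq (GRCm38.p6) are printed to show how close they are, with the seed, bases 2 to 8, in capitals. They map to chr14:54949072-54949093 and chr14:54975710-54975731 on the minus strand and to chr2:155622893-155622913 on the plus strand.
mmu-miR-208a-3p: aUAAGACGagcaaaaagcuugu
mmu-miR-208b-3p: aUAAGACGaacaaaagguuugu
mmu-miR-499-5p: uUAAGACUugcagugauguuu

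The miR-208a and miR-208b arms share 1 seed and differ at 3 of 22 positions, counted from 1 at the 5′ end: G10A, A16G and C18U, with the miR-208a base first. The miR-499 arm differs from miR-208a at 9 of 21 positions, and G8U changes the last base of the seed. None of the 3 microRNA genes passed the filter on low values.

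Mir208a was listed at 4.54 and 3.66 on the diestrus pair of arrays, 4.13 and 3.88 on the day 12 pair, 3.39 and 3.34 on the day 19 pair and 4.07 and 3.92 on the post-partum pair. Both day 19 values were below the other 6, but the signal was low: 23.5% of all values in the table lay below its mean. Mir208b, inside Myh7, was 2.55 and 2.29 at day 19 against 2.82 and 2.39 in diestrus, and it overlapped diestrus. Mir499 was 2.81 and 3.23 at day 19 against 2.90 and 2.72, and also overlapped. These 2 signals were lower still, with 7.81% of all values below the Mir208b mean and 11.8% below the Mir499 mean. The post-partum values of Mir208b, 2.97 and 2.88, were above those of diestrus, day 12 and day 19. A difference in Mir208b like that in Myh7 was not detected, but at so low a signal a difference could be missed.

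Mhrt, a long non-coding RNA on the plus strand, overlaps Myh7 by 3666 bases and is known as an antisense transcript of the heart. Its level was 8.17 and 8.16 on the diestrus pair of arrays, 8.48 and 8.25 on the day 12 pair, 7.998 and 7.938 on the day 19 pair and 8.61 and 8.45 on the post-partum pair. Both day 19 arrays were below the other 6 while those of Myh7 were above. The day 19 mean was 0.20 ± 0.14 (SE) below diestrus (limma adjusted p = 0.699), and post-partum it was 0.56 above day 19 (adjusted p = 0.589). The sources used here do not say which strand each probe reads, so signal from Mhrt and Myh7 cannot be separated where they overlap.

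**Figure D4:**
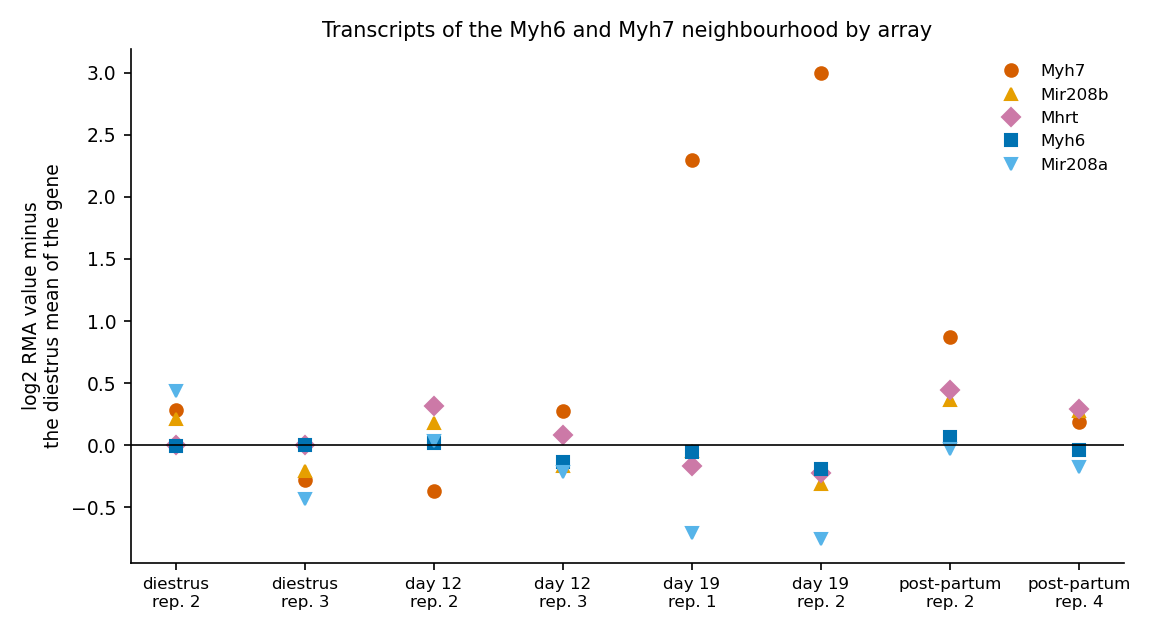
Log2 level minus the diestrus mean of the same gene (vertical axis) on each of the 8 arrays for Myh7, Mir208b, Mhrt, Myh6 and Mir208a, with 1 point per gene and array. On the day 19 arrays Myh7 stands at the top of the plot, while Mir208a and Mhrt are below their own values on the other 6 arrays.

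Genes related to myosin or its expression were examined in 6 further lists (the microRNA genes above, regulators, thyroid hormone genes, thick filament partners, other sarcomeric chains, and smooth and non-muscle chains), holding 112 genes, of which 105 were measured and 89 tested. None of the 89 passed limma's adjusted threshold in any of the 6 comparisons (smallest adjusted p = 0.319), and without day 19 replicate 1 at most 8 of them did, for day 19 against day 12, where 9.72% of all genes did. At day 19, 3 of the 89 lay above the other 6 arrays and 8 below, against 3.61% and 4.95% of all genes. These lists are described by their counts and medians beside those of all genes, of which 44.5% were higher at day 19 than in diestrus, with a median difference of -0.03.

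The list of transcriptional regulators of heavy chain genes held 39 tested genes of 42. At day 19, 9 were higher and 30 lower than in diestrus, with a median of -0.11. With arrays centred on the cardiomyocyte markers 16 were higher and 23 lower (median -0.03, against 0.06 for all genes), and with arrays centred on their medians 6 were higher and 33 lower (median -0.18, against -0.10 for all genes). The 5 of 39 regulators with both day 19 arrays below the other 6, a pattern found in 4.95% of all genes, were Rxra, the retinoid receptor that partners thyroid hormone receptors (-0.29), the muscle factors Mef2c (-0.17) and Mef2d (-0.31), the forkhead factor Foxo1 (-0.20) and Mhrt (-0.20). They were singled out after their values were seen, and the weaker second probe sets of Mef2c and Foxo1 did not show the pattern. Hbp1, a transcriptional repressor, was 9.13 and 9.32 in diestrus and 8.43 and 8.85 post-partum, a difference of -0.58 ± 0.18 (SE), with no overlap. Nkx2-5, a cardiac homeobox factor, was 0.31 ± 0.14 below diestrus at day 12 and 0.20 ± 0.14 above it post-partum, both without overlap. These patterns were found in 15.6% and 21.1% of all genes. Its post-partum mean was 0.52 ± 0.14 above day 12.

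The thyroid hormone list held 18 tested genes of 23, of which 6 were higher and 12 lower at day 19 (median -0.08, or 0.01 with arrays centred on the cardiomyocyte markers and -0.14 with arrays centred on their medians). Kcnd2, a potassium channel gene under thyroid control in the ventricle, was 9.34 and 9.09 in diestrus and 8.54 and 8.50 at day 19, a difference of -0.70 ± 0.19, and both day 19 arrays lay below the other 6. Crym, a thyroid hormone binding protein, was 5.99 and 5.97 at day 19 and above the other 6 arrays. Ucp3, a mitochondrial uncoupling protein, was highest at day 12, at 7.85 and 7.65 against 6.93 and 7.38 in diestrus. The receptor Thra was 7.77 and 7.57 in diestrus and 7.52 and 7.16 at day 19, and Thrb was 7.29 and 7.31 against 7.13 and 6.99, both lower without overlap. Both were also below diestrus without overlap post-partum, Thra at 7.248 and 7.443 and Thrb at 7.125 and 7.121, so this was not particular to day 19. The pattern was found in 20.4% of all genes at day 19 and 21.7% post-partum. These receptors were also named after their values were seen.

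Of the 23 kinases, phosphatase subunits and thick filament partners of myosin, 20 were tested, and at day 19 there were 11 higher and 9 lower (median 0.04, or 0.12 with arrays centred on the cardiomyocyte markers and -0.03 with arrays centred on their medians). Myom2, an M-band protein that ties thick filaments together, was 11.05 and 11.06 at day 19 and lay above the other 6 arrays by a margin of 0.013. Trim54, a muscle ring finger protein, was 0.28 ± 0.14 (SE) above diestrus at day 19 and 0.36 ± 0.14 above it post-partum. Smyd1, a methyltransferase needed to build the sarcomere, was 0.04 below diestrus at day 19. It was 0.23 ± 0.13 above diestrus at day 12 and 0.26 ± 0.13 above it post-partum, both without overlap. These patterns were found in 21.7% and 21.1% of all genes. Other sarcomeric myosin chains were mostly below the filter, with 3 of 12 tested. Myl1, the fast skeletal essential light chain, was 8.56 and 8.19 at day 19 against 8.004 and 7.844 in diestrus, without overlap (0.45 ± 0.18). It was also above diestrus without overlap at day 12 (0.36 ± 0.18) and post-partum (0.49 ± 0.18), so this was not particular to day 19. Myl7 was 1.48 ± 2.43 above diestrus, a value carried by single arrays of each group.

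**Figure D5:**
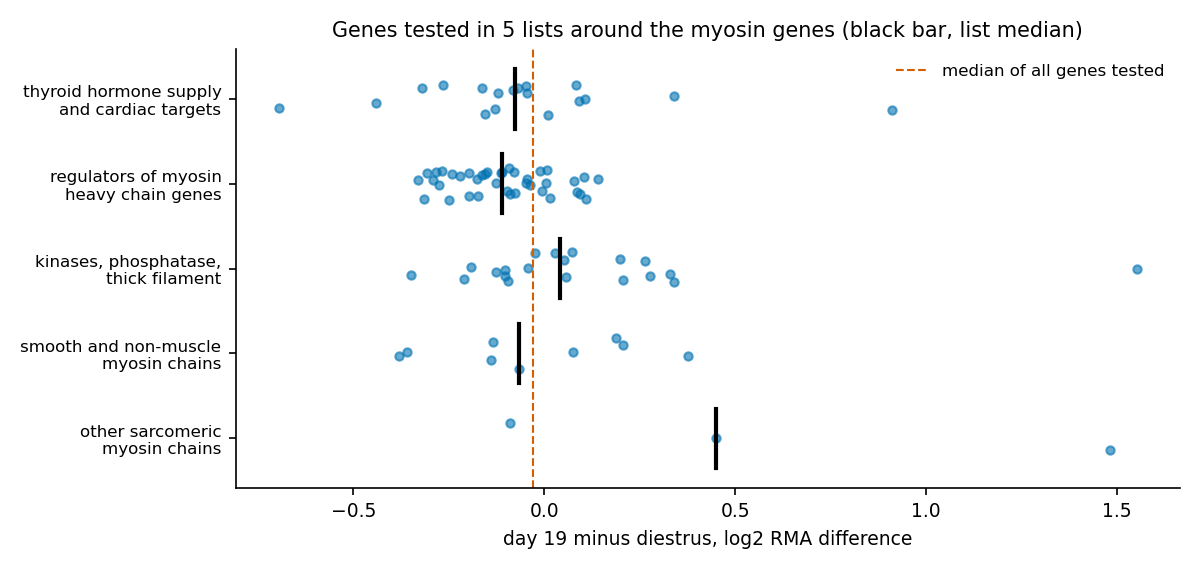
Day 19 minus diestrus (log2, horizontal axis) for every tested gene of 5 lists, with 1 point per gene, a black bar at each list median and a dashed line at the median of all genes tested (-0.03). The regulator points lie mostly below 0 (30 of 39), and the far points to the right in the thick filament and sarcomeric chain lists are Mybphl and the atrial light chain Myl7.

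The genes whose 8 values most resembled those of Myh7 were found by the root mean square distance between profiles centred on their own means, where a flat profile has a distance of 1.15. The nearest were Serpina3n, an acute-phase protease inhibitor (0.579), Il1b, the cytokine interleukin-1 beta (0.587), Atf3, a stress-induced transcription factor (0.610), the complement gene C4b (0.644) and Plek, a leukocyte signalling protein (0.650). Their day 19 differences from diestrus were 2.14, 1.82, 1.52, 2.02 and 1.71, so they resembled Myh7 mainly in being high at day 19. Il1b was 5.17 on day 19 replicate 1 and 7.50 on replicate 2, the array with the high leukocyte markers, and Serpina3n was 9.25 and 10.28. Myh7 was also ordered by the size of its difference, given above, and by the gap of its day 19 arrays from the rest. A gap at least as large was found in 2 of 13872 genes, Myh7 and the chemokine gene Cxcl13, which was named after its values were seen. Because Myh7 was chosen with these values in view, nothing is read from its place.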

How the data were processed

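Left ventricle RNA was measured on 8 Affymetrix arrays, 2 per state. The values are log2 expression levels deposited by the authors, computed by the RMA method; per the submitters' processing notes the program was Affymetrix Expression Console, and its version, probe library and build were not given in the sources used here. The table holds 34365 probe sets, of which 23521 carry 1 gene symbol, 1814 several and 9030 none in the annotation supplied; probe sets of 1 gene were reduced to the one with the highest mean level. The 22180 genes were filtered to 13872 whose mean reached the table's median (5.19) in at least 1 group. Group means were compared with limma 3.58.1 in R 4.3.3 (all 8 arrays, moderated variance, Benjamini-Hochberg at 0.05), and the script was tested on simulated data. Precision is limited by having 2 arrays per group. The myosin genes and gene lists were chosen with earlier results of these data known. Named genes were the myosin genes, up to 3 genes of each list by the smallest moderated F p over the 4 groups, any list gene past the threshold, the atrial markers, and the 5 profiles nearest a myosin gene whose group means spanned 0.5 or more (Myh7 alone); other names are marked as chosen after their values were seen. Alternatives were other normalizations, filters, variance settings, a replicate block and leaving out arrays. Comparisons with other probe sets could not be run because each myosin gene has 1 probe set.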

Additional observations from a re-analysis of the deposited data

How the results depend on the processing

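With 2 arrays per state, the number of arrays limits every statement. The count of genes called, 0 in each comparison, was also 0 without the filter on low values, with a stricter filter, with arrays centred on their medians and with only the compared groups in the model. It was 1 with array weights for day 12 against diestrus and 1 with trended and robust variance for post-partum against day 19. Leaving out 1 array gave 0 to 2 calls for day 12 and 0 to 1311 for day 19 against diestrus, 0 to 3 for post-partum against diestrus, 0 to 1374 for day 19 against day 12, 0 to 929 for post-partum against day 19 and 0 to 3 for post-partum against day 12; the highest values involving day 19 came without its replicate 1. Diestrus and day 12 share replicate numbers 2 and 3. The replicate block gave 29 calls for that comparison, and deviations of same-numbered arrays correlated at 0.22, but the labels do not say that the numbers pair samples. No paired analysis was possible because the groups share fewer than 2 numbers in every other comparison.

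Each gene had 43 alternative values. The SD used was each gene's own, pooled over the 4 groups, at 0.46 for Myh7 and 0.061 for Myl3. Counts over 1 SD are therefore not compared between genes. For Myh7, with much the same SD in every group, leaving out 1 of 2 arrays could not move a value by 1 SD. The replicate block leaves every difference unchanged. Values over 1 SD from the reported ones numbered 2 for Myh7, 12 for Myl3, 10 for Myh7b and 8 for Myl2. For Myh6 there were 3, with 1 more that reversed a difference of over 1 SD. The sign changed in 11 for Myh6, 6 for Myl2, 4 for Myh7b and 2 each for Myh7 and Myl3. For Myh7, without the 3 arrays with high Myl7, a setting chosen after seeing the data, the difference between day 19 and day 12 was 3.37 and that between day 12 and diestrus -0.65. The post-partum minus day 19 difference of Myh6 changed sign after centring on the cardiomyocyte markers, to -0.0050. The cause of these changes was not tested.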

Other observations

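Myosin chains of smooth muscle and non-muscle cells were described apart from the ventricular chains, and of the 9 tested, 5 were higher and 4 lower post-partum than in diestrus (median 0.07). Myl12a, a non-muscle regulatory light chain, was 8.36 and 8.41 in diestrus, 8.10 and 8.12 at day 12, 8.35 and 8.83 at day 19, and 9.35 and 9.07 post-partum, where both arrays were above the other 6. The post-partum mean was 0.82 ± 0.18 (SE) above diestrus and 1.10 above day 12 (limma adjusted p = 0.319). A second Myl12a probe set stood at 5.49 and 5.89 post-partum against 5.99 and 5.75 in diestrus, so the probe sets of this gene differed in direction. Myh9, a non-muscle heavy chain, was 9.48 and 9.37 post-partum against 8.92 and 9.10 in diestrus. Myh11, the smooth muscle heavy chain, was 7.08 and 7.13 post-partum and 7.190 and 6.996 at day 19, against 7.30 and 7.64 in diestrus, without overlap.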
